A study of Bos taurus with 5 samples.

Results

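Mitochondria are built from a few proteins of their own genome and many made in the cytosol, so a muscle fibre depends on genes that move proteins and metabolites across the mitochondrial membranes. TOM and TIM complexes carry precursor proteins through the outer and inner membrane, and SLC25 carriers exchange phosphate, nucleotides, amino acids and other small molecules across the inner membrane. Mitofusins and OPA1 fuse mitochondria, DNM1L divides them, the MICOS complex holds the cristae in shape, the calcium uniporter takes up calcium, and AAA proteases remove damaged proteins. In oxidative muscle the PPARGC1 coactivators and the nuclear receptors of the ESRR family are known for switching on many of the nuclear genes involved.

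The genes described here were those of the deposited table whose symbol belongs to these families, from the SLC25 carriers, TIMM and TOMM import genes and MICOS genes to the fusion, calcium, transcription and protease genes. They were chosen by symbol and not by level, and numbered 58 of the 9022 genes in the table (7589 of which had a symbol), with 102 of its 13391 transcripts. The samples were longissimus dorsi, a long back muscle, of 5 cattle of the Jiaxian Red breed aged 18 months, with 1 RNA sequencing library per animal. The study looked for genes that bear on muscle development, and its 5 libraries formed 1 group with no treatment or control, so the comparisons set genes against each other within libraries and describe the spread between animals. Values are FPKM, fragments per length of transcript and mapped fragments of the library, summed over a gene's listed transcripts.

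Markers of the labelled tissue were present: all 8 skeletal muscle markers were listed at a mean of 1 FPKM or more, with a summed level between 20595 and 24735 FPKM per library. CKM, at a mean of 16.2 FPKM, lay far below the other muscle markers, which averaged 1065 to 5134 FPKM. Fat cell markers summed to 32.9 to 65.1 FPKM, almost all of it LPL, with 2 of 6 listed. Endothelial markers summed to 77.9 to 90.3 FPKM, with VWF at a mean of 0.0713 FPKM. Fibroblast markers summed to 394 to 845 FPKM, with 3 of 6 listed, and leukocyte markers to 1.77 to 3.97 FPKM, with 2 of 5 listed. The single listed blood cell marker, HBB, had 0.253 to 3.09 FPKM. The summed FPKM of all genes ran from 193706 in library 1 to 223251 in library 4, and the mitochondrial genome's 12 listed genes took 10.3% to 15.3% of it, most in library 4. In whole muscle, fewer cells of a type and less RNA per cell cannot be told apart. Depth was unknown, as no counts were given.

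Most of these mitochondrial genes were expressed. A mean of at least 1 FPKM, used here as the detection limit, was reached by 49 of 58 (84.5%), beside 68.0% of all genes, and a mean of at least 10 FPKM by 24 (41.4%), beside 24.1%. In every library 44 genes (75.9%) were at 1 FPKM or more, beside 57.4%. The median level of the 49 was 9.80 FPKM, beside 6.38 FPKM for all 6136 detected genes. Together the 58 genes took 0.475% ± 0.0229 of all FPKM (SD, n = 5), and the single gene SLC25A3 made up 19.7% of that sum. The 10 most abundant made up 61.8%. Exact zeros were few: 3 of the 58 genes were listed at 0 in at least 1 library, beside 12.8% of all genes.

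**Figure D1:**
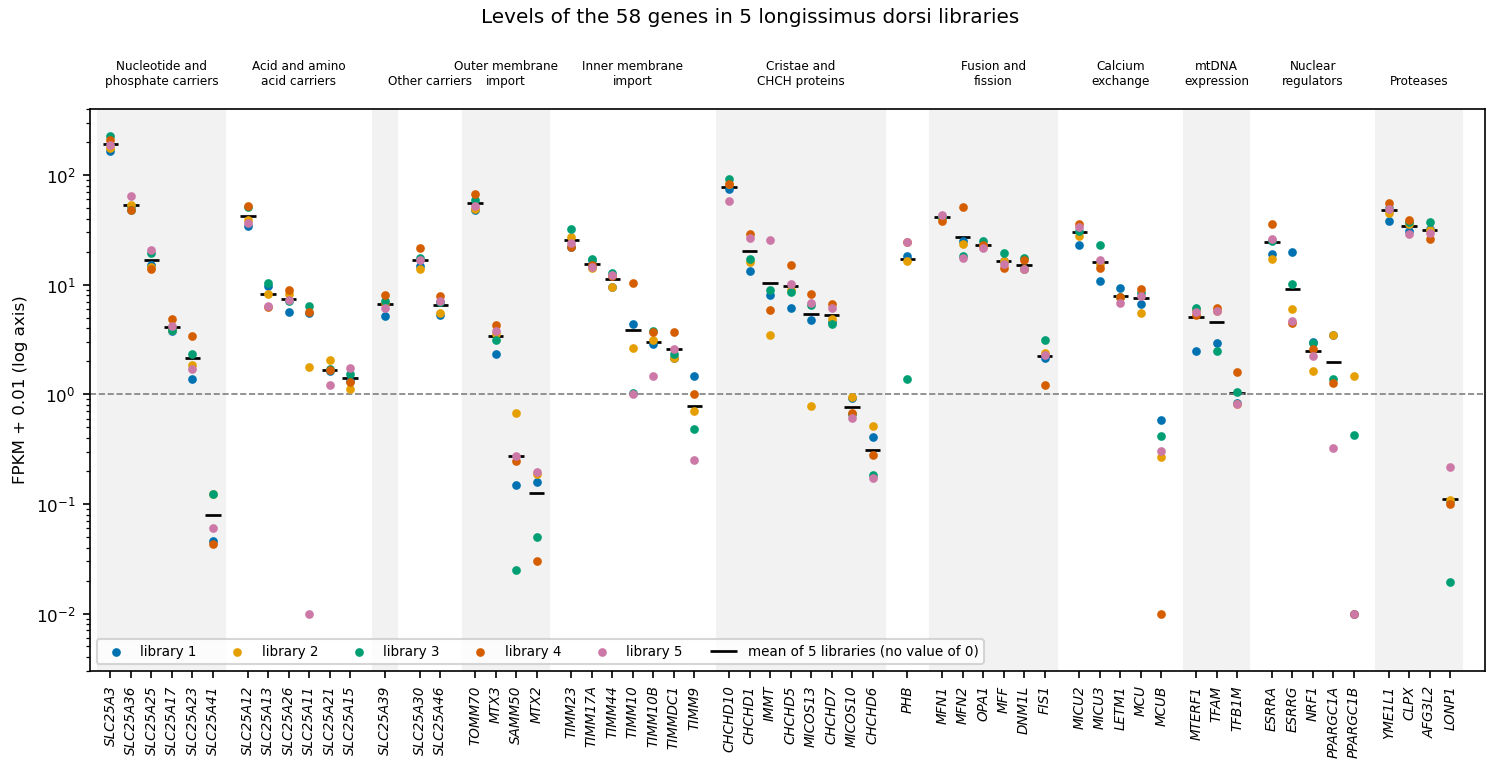
FPKM of each of the 58 genes in each library (coloured points), grouped by role, on a log axis with 0.01 added so that values of 0 can be drawn. Black bars are means over 5 libraries, drawn for genes with no value of 0, and the dashed line marks 1 FPKM. SLC25A3 stood highest at a mean of 194 FPKM, and 9 genes averaged under 1 FPKM. The unlabelled strips hold SLC25A39 (next to the other carriers) and PHB.

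SLC25A3, the carrier that brings phosphate into the matrix for ATP synthesis, was the most abundant of the 15 listed carriers. The nucleotide carrier genes SLC25A4, SLC25A5 and SLC25A6 were not listed, so SLC25A3 could not be set against them. SLC25A3 had 166, 176, 226, 210 and 189 FPKM in libraries 1 to 5, a mean of 194 ± 24.4 (SD, n = 5). This placed it 115th of the 6136 detected genes. No library stood apart from the others. The SLC25A3 gene, ENSBTAG00000012890, was placed by the table on chromosome 5, between 62746005 and 62752373. Next among the listed carriers of nucleotides was SLC25A36, which moves pyrimidine nucleotides, at 53.2 ± 6.45 FPKM. It had 64.1 FPKM in library 5 and 48.2 to 53.3 FPKM in the others. SLC25A25 and SLC25A23, calcium-regulated exchangers of ATP-Mg and phosphate, averaged 16.7 ± 3.18 and 2.12 ± 0.782 FPKM (SD, n = 5). Their relative SLC25A41 stayed between 0.0328 and 0.114 FPKM in every library. SLC25A17, a carrier of peroxisomes despite its family name, averaged 4.11 ± 0.428 FPKM.

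Among carriers of acids and amino acids, the aspartate-glutamate carrier gene SLC25A12 was prominent. This carrier works in the malate-aspartate shuttle, which passes the reducing power of cytosolic NADH into mitochondria. SLC25A12 had 34.7, 39.0, 50.9, 52.8 and 36.5 FPKM in libraries 1 to 5, against 9.79, 8.19, 10.4, 6.20 and 6.39 FPKM for SLC25A13, the other aspartate-glutamate carrier gene. The ranges did not overlap, and SLC25A12 was 4.78-fold higher on the FPKM + 1 scale, with a log2 ratio of 2.26 ± 0.43 (SD, n = 5). SLC25A11, the oxoglutarate-malate carrier of the same shuttle, was uneven: 5.54, 1.77, 6.37 and 5.57 FPKM in libraries 1 to 4 and listed at 0 in library 5. Transcript numbers were missing below the highest listed one for SLC25A12 and SLC25A11, so both sums may leave transcripts out. SLC25A26, which imports S-adenosylmethionine, averaged 7.43 ± 1.25 FPKM, SLC25A21, a carrier of oxodicarboxylates, 1.64 ± 0.295, and the ornithine carrier gene SLC25A15 1.39 ± 0.230.

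The other listed carriers were moderate and even. SLC25A30 averaged 17.0 ± 2.99 FPKM, SLC25A39, needed for glutathione import, 6.65 ± 1.11, and SLC25A46, an outer membrane protein tied to mitochondrial shape, 6.53 ± 1.08 (SD, n = 5). All 3 were highest in library 4, at 21.6, 8.12 and 7.81 FPKM. SLC25A39 and SLC25A46 were lowest in library 1, at 5.14 and 5.31 FPKM, and SLC25A30 in library 2, at 13.8 FPKM. No carrier had a library far outside the range of the other 4 by Dixon's gap ratio, the gap to the nearest library divided by the whole range, for which 0.71 is the limit with 5 libraries.

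At the outer membrane 4 import genes were listed, of which TOMM70 was by far the most abundant. No other TOMM gene was listed, so its level could not be set against the rest of the TOM complex. TOMM70 encodes the receptor that hands over carrier precursors, including those of the SLC25 family, to the import channel. TOMM70 (ENSBTAG00000014302, chromosome 1 from 44650783 to 44687949) had 48.4, 49.0, 59.1, 66.7 and 52.7 FPKM in libraries 1 to 5, a mean of 55.2 ± 7.72 (SD, n = 5). It was above 93.5% of detected genes. SAMM50, the core of the machinery that inserts barrel proteins, and MTX2, its metaxin partner, were both under the detection limit, at 0.265 ± 0.247 and 0.115 ± 0.0786 FPKM. MTX2 had 0.0200 to 0.186 FPKM, against 2.32 to 4.26 FPKM for its relative MTX3. The ranges did not overlap, and the log2 ratio of MTX2 over MTX3 was -1.97 ± 0.30 with 1 FPKM added to both and -4.09 with 0.1 FPKM added, so its size depends on that addition. The table listed 1 transcript each of SAMM50 and MTX2, and the numbering of MTX2 had a gap, so this order concerns the listed transcripts. MTX3 overlapped THBS4 in the RefSeq gene table, so that reads could be shared between them.

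At the inner membrane, the channel and its motor were well represented, while the small chaperones were low and variable. TIMM23, the channel of the presequence pathway, averaged 25.6 ± 4.42 FPKM, its partner TIMM17A 15.6 ± 1.34, and TIMM44, which anchors the import motor, 11.2 ± 1.54 (SD, n = 5). TIMM9 and TIMM10 form the small chaperone ring that guides hydrophobic precursors between the membranes. TIMM9 had 1.47, 0.689, 0.472, 0.996 and 0.241 FPKM in libraries 1 to 5, against 4.35, 2.64, 1.01, 10.5 and 0.992 FPKM for TIMM10. TIMM9 was lower in 5 of 5 libraries, with a log2 ratio of -1.18 ± 0.80 with 1 FPKM added to both and -1.84 with 0.1 FPKM added. The 2 ranges overlapped, and TIMM10 varied 10.6-fold between libraries. A transcript number was missing for TIMM9, of which 1 transcript was listed. TIMM9 also overlapped TOMM20L and KIAA0586 in the RefSeq gene table, so that reads could be shared. TIMM10B, a relative acting with the carrier translocase, averaged 2.99 ± 0.927 FPKM, with its lowest value, 1.47, in library 5. TIMMDC1, an assembly factor of complex I with a TIMM name, averaged 2.57 ± 0.639 FPKM.

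CHCHD10, a small protein of the intermembrane space linked in people to motor neuron and muscle disease, was the second most abundant of the 58 genes. It had 74.4, 83.7, 92.2, 83.1 and 57.6 FPKM in libraries 1 to 5, a mean of 78.2 ± 13.1 (SD, n = 5). CHCHD1, a protein of the mitochondrial ribosome, followed at 20.4 ± 6.85 FPKM, with 28.8 and 26.7 FPKM in libraries 4 and 5 and 13.3 to 17.3 FPKM in the other 3. CHCHD5 averaged 9.80 ± 3.33 FPKM and CHCHD7 5.33 ± 0.996.

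Of the MICOS genes, which shape the cristae, IMMT and MICOS13 were uneven. IMMT, the large core subunit, had 8.08, 3.46, 8.89, 5.92 and 25.6 FPKM in libraries 1 to 5, a mean of 10.4 ± 8.76 (SD, n = 5), so that library 5 lay 2.88-fold above the next highest. MICOS13 (ENSBTAG00000001792, chromosome 7 from 18617143 to 18618572) had 4.74, 0.774, 6.47, 8.19 and 6.75 FPKM, with library 2 below the other 4 by a gap ratio of 0.714 on the log2(FPKM + 1) scale. MICOS10 and CHCHD6, further MICOS subunits, stayed under 1 FPKM in every library, at means of 0.751 ± 0.161 and 0.300 ± 0.146 FPKM. PHB, the prohibitin of ring-shaped inner membrane scaffolds, had 18.2, 16.5, 24.7 and 24.3 FPKM in libraries 1, 2, 4 and 5 and 1.37 FPKM in library 3. That gap ratio, 0.838, and an SD of 1.45 on the log2(FPKM + 1) scale made PHB the most variable of the 49 detected genes. PHB (ENSBTAG00000017120, chromosome 19 from 37195914 to 37206574) had 1 listed transcript and a gap in its numbering.

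Genes of mitochondrial fusion and division were all detected, and included the most even of the 49 detected genes. MFN1, an outer membrane fusion GTPase, had 41.4, 41.0, 41.9, 38.4 and 43.3 FPKM in libraries 1 to 5, a mean of 41.2 ± 1.79 (SD, n = 5). On the log2(FPKM + 1) scale its SD was 0.06, and 1.48% of detected genes had a smaller one. OPA1, which fuses the inner membrane, was nearly as even at 23.0 ± 1.20 FPKM, with 3 listed transcripts of which OPA1-201 carried 70.1%.

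MFN2, the second mitofusin, which also ties mitochondria to the endoplasmic reticulum, behaved differently from MFN1. MFN2 had 25.3, 23.4, 18.4, 51.2 and 17.6 FPKM in libraries 1 to 5, against the MFN1 values above. MFN2 was lower than MFN1 in 4 of 5 libraries and higher in library 4, where it was at least 2.02-fold above its level in any other library. The log2 ratio of MFN2 over MFN1 was -0.69 ± 0.66, and the exact two-sided sign-flip permutation p was 0.125. MFN2 had 1 listed transcript and a gap in its numbering, while MFN1 had no gap.

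On the division side, DNM1L, the GTPase that constricts mitochondria, averaged 15.2 ± 1.78 FPKM (SD, n = 5). MFF, a main receptor for DNM1L, had 16.3, 16.3, 19.3, 14.2 and 15.6 FPKM in libraries 1 to 5, against 2.12, 2.35, 3.13, 1.21 and 2.29 FPKM for FIS1, the other receptor-like protein. The ranges did not overlap, and MFF was 5.47-fold higher on the FPKM + 1 scale, with a log2 ratio of 2.45 ± 0.19; its mean FPKM was 7.36 times that of FIS1. Neither gene had a gap in its transcript numbering. MFF had 7 listed transcripts, the most of any of the 58 genes, and MFF-202 led in all 5 libraries with 34.7% to 57.9% of the gene.

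Of the calcium uniporter genes, the gatekeepers exceeded the pore in listed level. MICU2 averaged 30.3 ± 5.03 FPKM and MICU3, a relative that enhances uptake, 15.99 ± 4.45, beside 7.51 ± 1.45 for the pore gene MCU (SD, n = 5). These levels are per length of transcript and do not give the make-up of the protein complex. MCU had 6.63, 5.53, 8.40, 9.17 and 7.84 FPKM in libraries 1 to 5, against 0.568, 0.260, 0.407, 0 and 0.292 FPKM for MCUB, the subunit that limits the channel. The ranges did not overlap, and the log2 ratio of MCU over MCUB was 2.70 ± 0.42, a size that depends on the 1 FPKM added to both. LETM1, an inner membrane protein of potassium and proton exchange, averaged 7.86 ± 0.869 FPKM.

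Genes that express the mitochondrial DNA were low. MTERF1, which binds the mitochondrial DNA and can end transcription, had 2.49 FPKM in library 1 and 5.90, 6.15, 5.29 and 5.63 FPKM in libraries 2 to 5. This gave a gap ratio of 0.821 (ENSBTAG00000045617, chromosome 4 from 9247873 to 9254862). TFAM, which packages the mitochondrial DNA and starts its transcription, had 2.90 and 2.47 FPKM in libraries 1 and 3 and 5.70, 6.08 and 5.71 FPKM in libraries 2, 4 and 5. No value of TFAM lay between 2.90 and 5.70 FPKM. TFB1M, a ribosomal RNA methyltransferase, averaged 1.01 ± 0.331 FPKM, just over the detection limit.

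Of the nuclear regulators, ESRRA was the most abundant, while ESRRG had its one high value in library 1. ESRRA had 18.9, 17.0, 25.0, 35.6 and 25.9 FPKM in libraries 1 to 5, against 20.0, 5.99, 10.2, 4.45 and 4.63 FPKM for ESRRG. ESRRA was higher in 4 of 5 libraries and slightly lower in library 1, with a log2 ratio of 1.50 ± 1.09 (SD, n = 5; exact two-sided sign-flip permutation p = 0.125). ESRRA overlapped TRMT112 in the RefSeq gene table, so that reads could be shared between them. NRF1, nuclear respiratory factor 1, averaged 2.46 ± 0.560 FPKM.

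PPARGC1A, the coactivator known for driving mitochondrial growth in muscle, was low and differed 11.0-fold between animals. PPARGC1A had 3.48, 3.47, 1.38, 1.25 and 0.316 FPKM in libraries 1 to 5, against 0, 1.45, 0.416, 0 and 0 FPKM for PPARGC1B. PPARGC1A was higher in 5 of 5 libraries, but the ranges overlapped and 3 values of PPARGC1B were 0, so the log2 ratio of 1.07 ± 0.67 depends on the 1 FPKM added to both. Both genes had gaps in their transcript numbering. The 2 libraries with the highest PPARGC1A, 1 and 2, had the lowest ESRRA. Library 5, lowest in PPARGC1A, had 25.9 FPKM of ESRRA, below the 35.6 FPKM of library 4. A relation between the 2 genes was not tested.

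Apart from LONP1, the protease genes were among the more abundant and even of the 58. YME1L1, which faces the intermembrane space, had 38.3, 45.4, 49.7, 55.9 and 48.7 FPKM in libraries 1 to 5, against 32.01, 31.5, 37.1, 25.9 and 29.9 FPKM for AFG3L2, which faces the matrix. The ranges did not overlap, and the log2 ratio of YME1L1 over AFG3L2 was 0.59 ± 0.32, a 1.50-fold difference on the FPKM + 1 scale (SD, n = 5). AFG3L2 had a gap in its transcript numbering and YME1L1 had none. CLPX, the unfoldase of the matrix protease ClpXP, averaged 34.5 ± 4.42 FPKM. LONP1, the main matrix protease, was listed at 0.00940 to 0.209 FPKM, from 1 transcript of a gene whose numbering had a gap and which overlapped the ribosomal protein gene RPL36 in the RefSeq table.

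**Figure D2:**
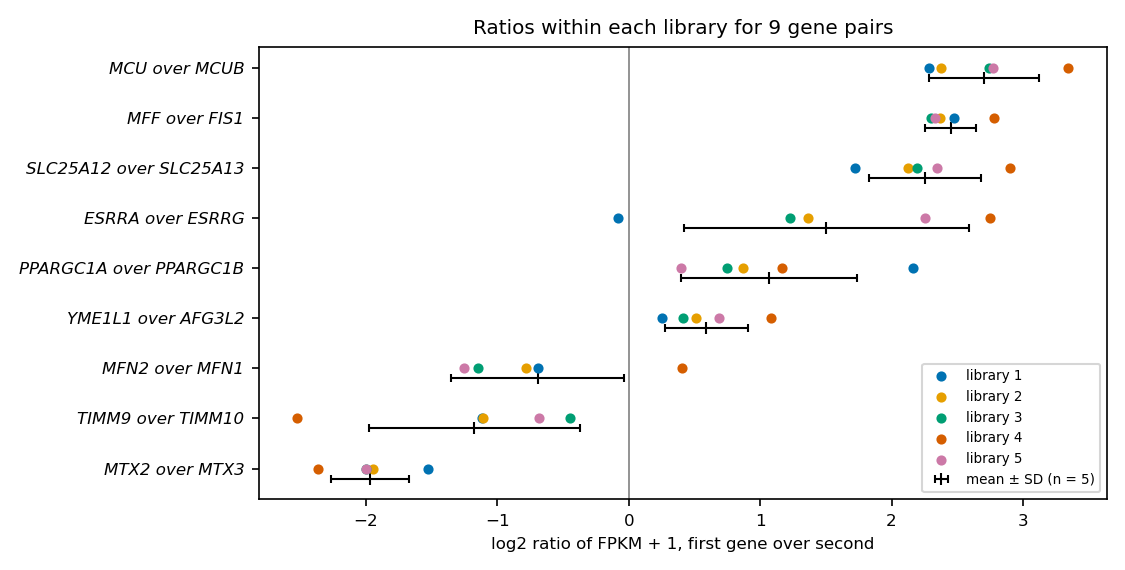
Log2 ratio of FPKM + 1 within each library (coloured points) for the 9 gene pairs with both members listed, first gene over second, with the mean and SD over 5 libraries in black. In 7 pairs all 5 points lie on 1 side of 0, and in MFN2 over MFN1 and ESRRA over ESRRG 1 library lies on the other side.

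Of 46 pairs of related genes considered, 9 had both members listed, and 7 pointed 1 way in 5 of 5 libraries. With 5 libraries the exact two-sided sign-flip permutation test cannot give p below 0.0625, so no pair could pass 0.05. The 7 pairs each reached that value, or 0.0804 after Benjamini-Hochberg adjustment over the 9, and MFN2 over MFN1 and ESRRA over ESRRG gave 0.125 before and after adjustment. With both members required to reach a mean of 1 FPKM, 3 pairs pointed 1 way in every library: SLC25A12 over SLC25A13, MFF over FIS1 and YME1L1 over AFG3L2. In these 3 the difference was also larger than the spread between libraries, by the means and SDs given above.

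Seen across the animals, many of these genes were highest in library 3 or library 4. Of the 49 detected genes 24 (49.0%) had their highest value in library 4, beside 25.3% of all detected genes, and 15 (30.6%) in library 3, beside 17.5%. Library 1 was highest for 4 genes (8.16%, beside 24.4%), library 2 for 1 (2.04%, beside 15.5%) and library 5 for 5 (10.2%, beside 17.2%). Library 1 was lowest for 16 genes (32.7%, beside 26.5%), library 2 for 11 (22.4%, beside 21.0%) and library 5 for 10 (20.4%, beside 15.4%). Libraries 4 and 3 were lowest for fewer, 8 (16.3%, beside 23.4%) and 4 (8.16%, beside 13.7%). The genes share libraries and are not independent, and these shares were not tested. With 1 library per animal, an animal and its dissection, RNA and library cannot be told apart.

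**Figure D3:**
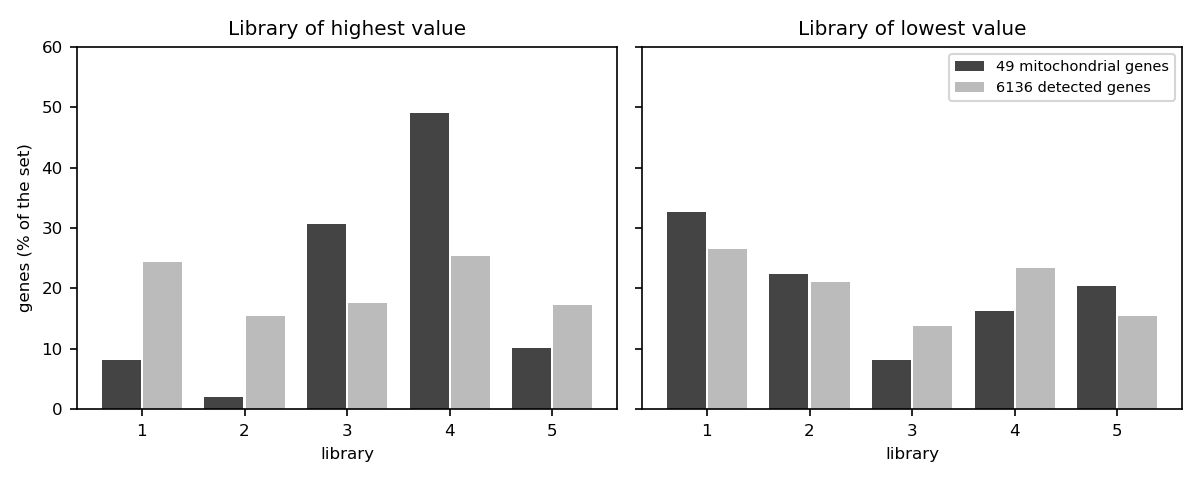
Share of genes, in percent, whose highest value (left) or lowest value (right) lay in each library, for the 49 genes at a mean of 1 FPKM or more (dark bars) and all 6136 such genes of the table (light bars). Library 4 held the highest value of 49.0% of the 49 genes and 25.3% of all detected genes.

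The shift was small for a typical gene. The median deviation from a gene's own mean, on the log2(FPKM + 1) scale, was -0.11, -0.08, 0.10, 0.19 and -0.01 in libraries 1 to 5, and lay between -0.02 and 0.03 over all detected genes. Above their own mean were 16, 17, 35, 33 and 24 of the 49 genes in libraries 1 to 5. Over all detected genes the shares were 50.3%, 46.2%, 57.0%, 52.3% and 53.4%. By role, the median deviation over detected genes was highest in library 4 for inner and outer membrane import (0.18, 6 genes, and 0.28, 2 genes). The same held for the cristae genes (0.40, 6 genes). Fusion and division genes instead had their highest median in library 3, at 0.16 (6 genes), and the nuclear regulators in library 1, at 0.48 (4 genes). In library 1 ESRRG, PPARGC1A and NRF1 were above their means, but ESRRA was below, at -0.31. Library 4 also had the greatest summed FPKM and the largest mitochondrial genome share, 15.3%, beside 11.2% in library 3. The summed level of the 8 skeletal muscle fibre markers was 20595, 22085, 23226, 24735 and 22282 FPKM in libraries 1 to 5, likewise lowest in library 1 and highest in library 4. The single markers differed. TPM2, TNNC1, MYLPF and MYL1 were lowest in library 1 and highest in library 4. TNNT3, MYH7 and CKM were instead highest in library 1, and ACTA1 in library 3. The part of these measures in the result was not tested. Rescaled to a fixed total per library, library 4 was highest for 17 of 55 detected genes, beside 15.3% of all, and library 3 for 15, beside 16.8%. Without library 4, library 3 was highest for 23 of the remaining detected genes and library 5 for 17, and without library 3, library 1 was highest for 8 and library 2 for 6. Leaving out a library tends to raise such counts in any gene set, and shares over all detected genes were not computed for these settings.

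**Figure D4:**
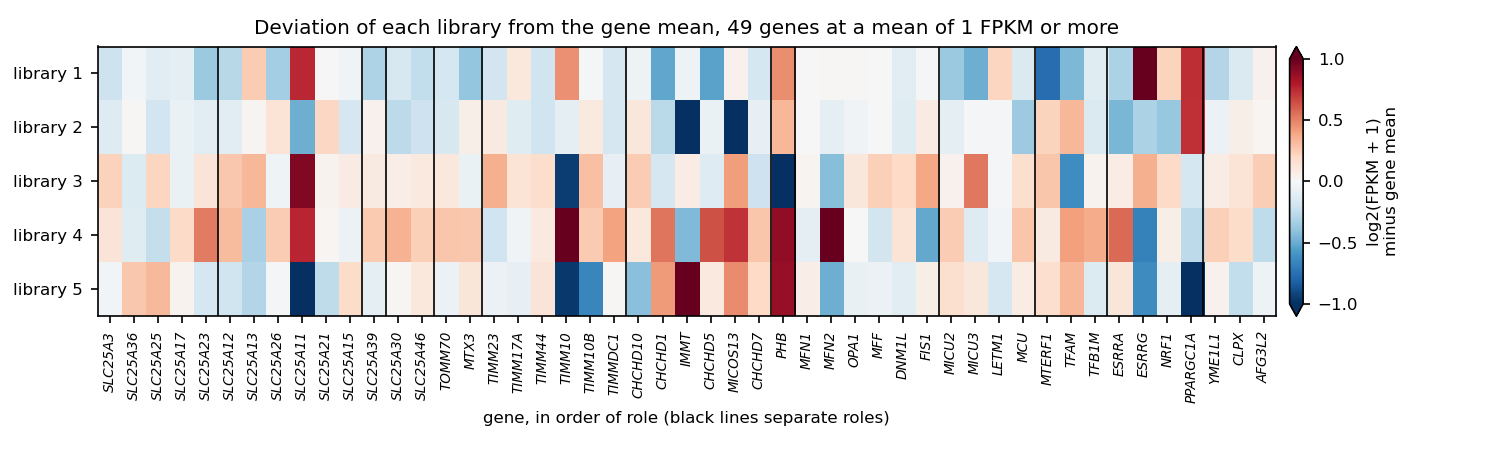
Deviation of log2(FPKM + 1) in each library (rows) from the gene's mean over 5 libraries, for the 49 genes at a mean of 1 FPKM or more (columns, by role). Red is above and blue below the mean, and colours are capped at 1 log2 unit. Library 4 is above the mean for 33 genes (beside 52.3% of all detected genes) and library 1 for 16 (beside 50.3%). The value furthest below its mean is PHB in library 3, at -2.55.

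The spread of most of these genes matched that of the table. Their median SD of log2(FPKM + 1) was 0.24, beside 0.25 for all detected genes. An SD of at least 0.5 was found for 8 of 49 (16.3%), beside 15.9%, and of at least 1 for 3 (6.12%), beside 3.63%. The 3 were PHB, SLC25A11 and TIMM10, and the other 5 were MICOS13, IMMT, ESRRG, PPARGC1A and MFN2. A library beyond the gap limit was found for 3 of 49 (6.12%), beside 7.37% of all detected genes: PHB, MTERF1 and MICOS13. Without library 5, 6 genes had a library beyond the limit for 4 libraries, and the share over all detected genes was not computed there.

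Of the genes with an SD of at least 0.5, IMMT and PPARGC1A changed their leading transcript between libraries, and ESRRG kept the same one. PHB, SLC25A11, TIMM10, MICOS13 and MFN2 had 1 listed transcript each. Of the 28 genes with several listed transcripts 22 had the same leading transcript in all 5 libraries. The same share over all genes with several listed transcripts was not computed. SLC25A3-202 held 93.5% to 94.7% of SLC25A3, AFG3L2-201 98.5% to 99.8% of AFG3L2, and SLC25A12-201 94.3% to 98.2% of SLC25A12. The exceptions were IMMT, NRF1, FIS1, PPARGC1A, SLC25A23 and CHCHD6.

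In IMMT, the high value of library 5 came mainly from 1 transcript. IMMT-202 had 16.04 FPKM in library 5, 1.78 and 0.869 FPKM in libraries 3 and 4, and was listed at 0 in libraries 1 and 2. IMMT-203 had 8.08, 3.46, 7.11, 5.05 and 9.57 FPKM in libraries 1 to 5. Both covered the same interval, chromosome 11 from 48673818 to 48716318, so the split between them rests on the authors' estimates per transcript.

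NRF1 had 3 different leaders. NRF1-204 led in libraries 1, 3 and 5 with 1.97, 1.62 and 1.76 FPKM and was listed at 0 in libraries 2 and 4. NRF1-202 led in library 2 with 1.53 FPKM, and NRF1-206 in library 4 with 1.68 FPKM. The gene's sum varied less, between 1.63 and 3.00 FPKM. In FIS1 the leader was FIS1-202 in library 2, with 1.63 FPKM beside 0.719 for FIS1-201, and FIS1-201 in the other 4. SLC25A23-202 led in library 3 with 88.6% of its gene, and SLC25A23-201 elsewhere. PPARGC1A-203 led in 4 libraries with 71.5% to 89.4%, but held 21.6% in library 5, where the gene was lowest.

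**Figure D5:**
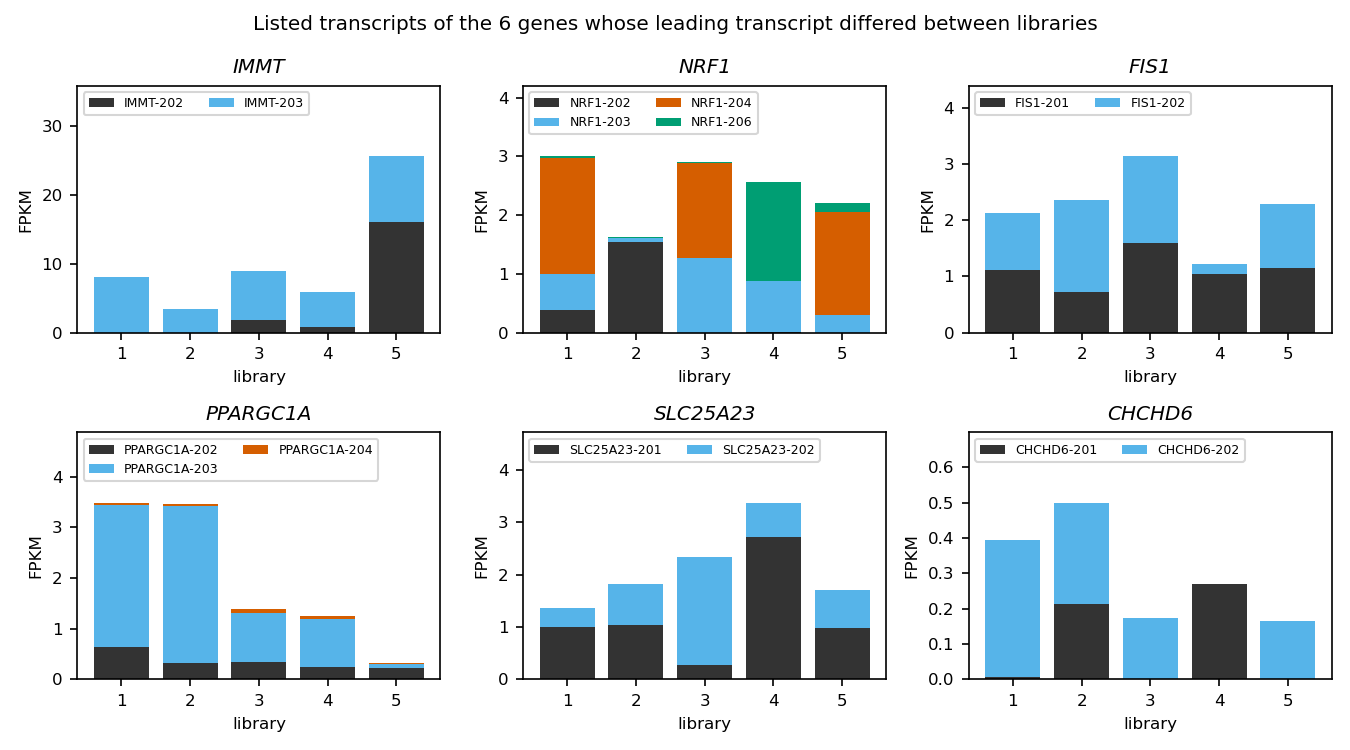
FPKM of each listed transcript, stacked to the gene's sum, in each library for the 6 genes whose leading transcript differed between libraries. IMMT-202 makes up most of IMMT in library 5 and is absent from the bars of libraries 1 and 2, and NRF1 is led by NRF1-204, NRF1-202 or NRF1-206.

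In position, the 58 genes were spread over 23 chromosomes, with 7 on chromosome 7. There SLC25A23 and SLC25A41, at 2.12 and 0.0688 FPKM on average, lay 1406 bases apart, and LONP1 and MICOS13, at 0.101 and 5.39 FPKM, 8484 bases apart. All 58 genes matched a RefSeq gene of ARS-UCD2.0, all protein-coding, and 14 of them overlapped another protein-coding gene there. The share of all genes with such an overlap was not computed. The 14 were not only low genes: TOMM70 overlapped LNP1 and DNM1L overlapped YARS2, and without strand information reads of such neighbours may be mixed.

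Further genes of import, dynamics and mitochondrial content, outside the 58, had means over a similar range. These ran from 0.0882 FPKM for MTFP1 to 165 FPKM for VDAC1, beside 0.0688 to 194 FPKM for the 58. Of 53 considered 29 were listed and 25 reached a mean of 1 FPKM. The 3 highest were VDAC1 and VDAC3, channels of the outer membrane, at 165 ± 16.2 and 105 ± 83.5 FPKM, and HSPE1, the small chaperonin of the matrix, at 103 ± 27.7 (SD, n = 5). On the log2(FPKM + 1) scale GABPA and VDAC3 had SDs of 1.61 and 1.54, above the 1.45 of PHB.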

How the data were processed

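Total RNA of longissimus dorsi from 5 cattle was sequenced, 1 library per animal, per the labels. The deposited values were FPKM per transcript, per the file headers. The submitters' processing notes list DESeq2 1.10.1, HTSeq 0.6.0 and the build UMD3.1, with no role for any; for the aligner, FPKM program, annotation release and strand setting, the answer is not given in the sources used here. Positions of 58 of 58 genes overlapped those of a RefSeq table of ARS-UCD2.0, so coordinates are printed as deposited, with no build claimed.

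FPKM were summed per gene identifier. Transcript numbering had gaps in 21 of the 58 genes (36.2%), beside 34.7% of 7579 numbered genes, so sums may be partial. No counts were given, so no counting interval was computed. Analyses used log2(FPKM + 1), in Python 3.11.15 (matplotlib 3.10.9, pandas 2.3.3, numpy 2.4.6). Related genes were compared within libraries by flipping the signs of the log2 ratios in every combination (exact permutation test, two-sided). The gap ratio and this test were tested on simulated data. Members, lists, pairs and roles were chosen with earlier results of these data known. Genes named were, the 3 most abundant and the 2 most variable in each role, members of listed pairs, genes with a distant library and genes under 1 FPKM; the remaining genes were added afterwards. The planned promoter and protein comparisons were not made, as no sequences were used here. Alternatives were a pseudocount of 0.1, limits of 5 FPKM or none, 1 FPKM in every library, TPM, median-ratio size factors, leading transcripts, and leaving out each library. Every value column was mapped to a library.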

Additional observations from a re-analysis of the deposited data

Results flagged for a closer look

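In groups of 5 values chance puts about 1 in 20 beyond the gap limit of 0.71. PHB stood apart through its low value of 1.37 FPKM in library 3 (gap ratio 0.838), beside 16.5 to 24.7 FPKM in the other 4 libraries. MTERF1 was set apart by 2.49 FPKM in library 1 (0.821), beside 5.29 to 6.15 FPKM. MICOS13 was low in library 2, at 0.774 FPKM (0.714), beside 4.74 to 8.19 FPKM. These ratios are on the log2(FPKM + 1) scale, and that of MICOS13 was 0.701, below the limit, after scaling by size factors. Among transcripts of the genes with changing leaders, NRF1-206 was high in library 4 at 1.68 FPKM (0.866), beside 0.0211 to 0.161 FPKM, and PPARGC1A-202 in library 1 at 0.638 FPKM (0.717), beside 0.228 to 0.332 FPKM.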

How the results depend on the processing

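No paired analysis was possible because all libraries belong to 1 group. The 81 values of the 9 pair ratios under alternatives kept the direction of the reported ratio, though sizes moved (MCU over MCUB 4.45 with a pseudocount of 0.1, 2.70 reported). For the 7 pairs that pointed 1 way in 5 of 5 libraries, only the use of leading transcripts could have reversed it. Their direction under the other alternatives was fixed in advance. The number of genes detected stayed within 1.5 times 49 under the alternatives run. Rescaling to TPM raised every value, by a median of 2.10 log2 units over detected genes. Under it 13 genes had an SD of at least 0.5 (8 reported) and 5 a distant library (3 reported). The highest value lay in library 1 for 10 of 55 detected genes, library 2 for 5 and library 5 for 8. Over all genes detected under TPM these shares were 33.9%, 16.3% and 17.7%. A limit of 5 FPKM left 5 genes with an SD of at least 0.5, 5 lowest in library 5, and 2 and 0 highest in libraries 1 and 2; without a limit library 2 was highest for 6. Size factors gave 3 for library 2, beside 20.0% of all detected genes, and left 2 genes with a distant library, without MICOS13. The median SD was 0.27 with a pseudocount of 0.1. The summed share was 0.381% without SLC25A3, and 3 pairs pointed 1 way with both members detected. Leaving out libraries in turn gave a median SD from 0.22 to 0.26, 3 to 6 genes with a distant library, 7 or 8 pairs pointing 1 way, and highest-value counts of 4 to 8 in library 1, 2 to 6 in library 2, 16 to 23 in library 3 and 5 to 17 in library 5. The greatest of these came without library 3 (8 in library 1, 6 in library 2) and without library 4 (23 in library 3, 17 in library 5). Lowest-value counts ran from 12 to 19 in library 2 and from 4 to 7 in library 3, with 19 and 7 without library 1, and the 6 genes with a distant library came without library 5. Shares over all detected genes were not computed for the counts under a changed limit or with a library left out. Counts of genes highest in a library, and all their alternatives, were added after seeing the data. Without counts, the precision of low values, below about 1 FPKM, is unknown.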
